A study of Mus musculus with 4 samples.

Results

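The reactive astrocyte genes described here are 10 genes that astrocytes are known to raise when brain tissue is injured or inflamed, *Gfap*, *Vim*, *Serpina3n*, *Lcn2*, *Cd44*, *Osmr*, *Timp1*, *Steap4*, *S1pr3* and *Cp*. They were taken by name from the 23420 gene symbols counted in each sample, and all 10 were found. RNA-seq was done on total RNA from prefrontal cortex (PFC) of C57BL6/J mice, an inbred wild-type strain, aged 6 to 8 weeks, with 2 samples labelled GFP-AAV9 (control) and 2 labelled shRNA_ASH1L-AAV9 (*Ash1L* shRNA). The virus was an adeno-associated virus (AAV) carrying GFP, and in the *Ash1L* shRNA group it also carried a short hairpin RNA against *Ash1l*, a histone methyltransferase gene, expressed from the U6 promoter, which is not limited to 1 cell type. The control virus is named as scrambled shRNA AAV in the study's methods and as GFP AAV9 in the labels. Mice were injected at 5 weeks of age according to the methods, which also state that punches of the GFP-fluorescent region from 3 mice made up each sample. The series description gives 3 *Ash1L* shRNA mice and 2 control mice, so how many animals lie behind a sample is not settled, and the p-values below measure the spread between these samples.

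Astrocytes respond to injury, seizures and inflammation by a program called reactive gliosis, in which the intermediate filament proteins GFAP and vimentin, secreted inhibitors of proteases, and receptors for cytokines and matrix are made in larger amounts. Cytokines of the IL-6 family signal in astrocytes through gp130 (*Il6st*) and a partner receptor such as *Osmr*, and the transcription factor STAT3 then acts on many of the reactive genes. Several of these genes are also made by microglia, endothelial cells, fibroblasts or invading leukocytes. In bulk tissue, fewer cells of a type and less RNA per cell cannot be told apart.

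Total counts were 14251190 and 35764874 in control samples 1 and 2 and 27479339 and 20106708 in *Ash1L* shRNA samples 1 and 2, so counting error was largest in control sample 1. Levels are given as CPM, the count divided by the TMM-scaled library size and brought to a common total, and intervals on single samples are exact Poisson intervals at the 95% level that cover counting error only. *Ash1l* (chromosome 3, 88950622 to 89079375 on mm10) had 245 and 290 CPM in control and 216 and 138 CPM in *Ash1L* shRNA samples, so both *Ash1L* shRNA samples lay below both controls. The markers of the labelled tissue were present, with *Slc17a7* of excitatory neurons between 754 and 1069 CPM and *Gad1* of interneurons between 232 and 280 CPM over the 4 samples. *Ash1L* shRNA sample 2 lay further from the control mean than sample 1 for 69.9% of the 16232 genes tested.

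Of the 10 reactive astrocyte genes, *Osmr* and *Serpina3n* were higher in the *Ash1L* shRNA samples in edgeR's quasi-likelihood test at the study's limit. That limit, an unadjusted P under 0.05 and at least a 1.2-fold change, is here called UP (or DOWN where lower). The study set it on DESeq2 results, and with DESeq2 *Vim* was UP as well. *Cd44*, *Timp1*, *Steap4*, *Vim* and *Lcn2* had positive fold changes that did not pass the limit in edgeR's test. *Gfap*, the standard marker of reactive astrocytes, had equal mean levels in both groups. All samples came from virus-injected PFC, so whether injection raised *Gfap* in both groups was not tested. The 10 genes all passed the filter on low counts. With 2 of 10 UP, the share can be read against 8.61% of all genes tested that were UP. None of the 10 was DOWN, against 8.28% of all genes. After Benjamini-Hochberg adjustment over all 16232 genes, 0 of the 10 passed 0.05 in edgeR's quasi-likelihood test, and 1 gene, 0.00616% of those tested, did so anywhere, while 2746 genes had an unadjusted p under 0.05. DESeq2 gave 1 of the 10 genes, *Osmr*, an adjusted p under 0.05, at 0.048, against 2.09% of the 20177 genes it tested. Both *Ash1L* shRNA samples lay above both controls for 4 of the 10 genes, *Serpina3n*, *Osmr*, *Cd44* and *Steap4*, against 26.5% of all genes tested, and below both controls for 0 of the 10, against 26.8%. The median log2 fold change of the 10 genes was 0.56, against -0.00273 over all genes tested. The 10 genes and the lists below were chosen with earlier results of these data known. Comparisons of their shares and medians with all genes are therefore descriptions and not tests. The smallest two-sided p that an exact permutation of these samples allows is 0.333, so no gene was tested that way.

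**Figure D1:**
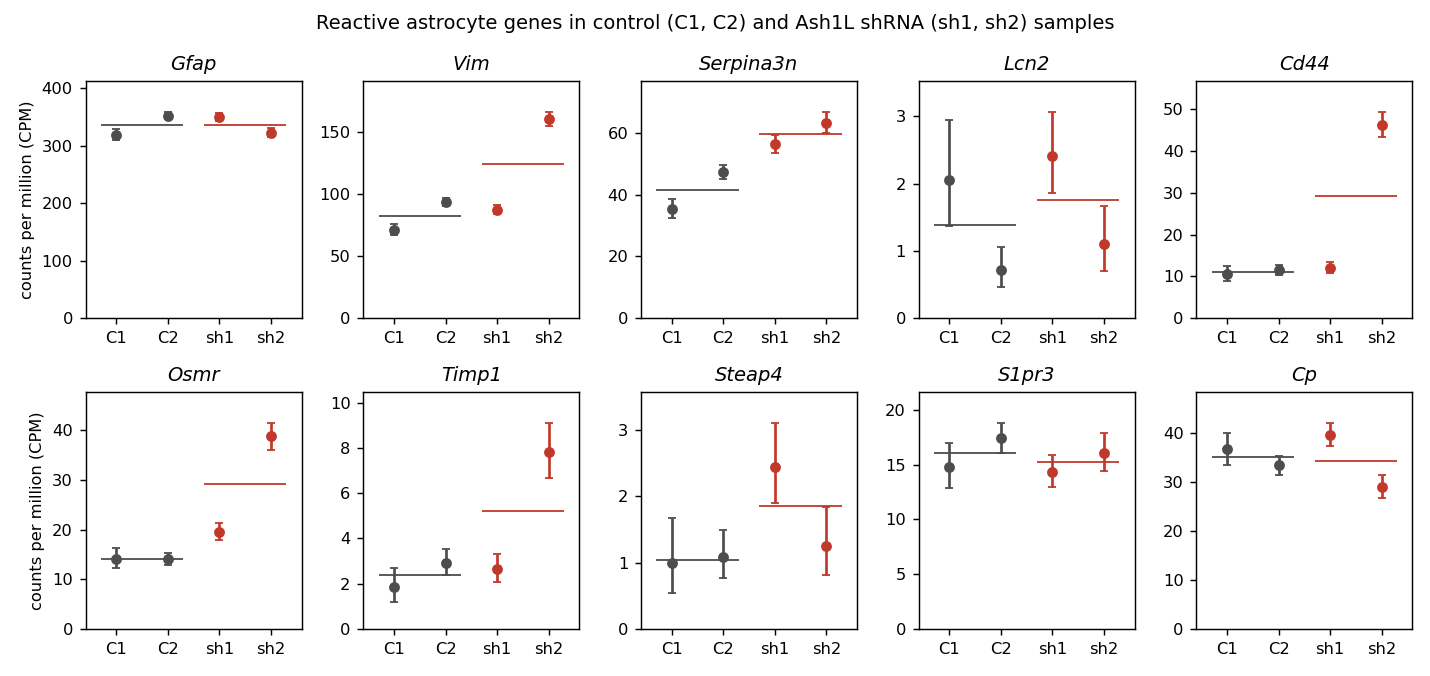
Level of each reactive astrocyte gene in CPM (vertical axis, from 0) in control samples (C1, C2, grey) and *Ash1L* shRNA samples (sh1, sh2, red), with exact 95% Poisson intervals for counting error as bars and group means as lines. *Gfap* stays between 319 and 352 CPM in all samples, while *Cd44* stands at 46.3 CPM in sh2 against 10.6 to 12.05 CPM in the other samples.

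Neither of the filament genes *Gfap* and *Vim* passed the limit in edgeR's test, while *Vim* passed it with DESeq2, the study's method. *Gfap* (chromosome 11, 102887336 to 102900912) encodes the main intermediate filament of mature astrocytes and had 319 and 352 CPM in control samples 1 and 2 and 349 and 322 CPM in *Ash1L* shRNA samples 1 and 2. The *Ash1L* shRNA samples lay within the control range. The log2 change of 0.00071 (standard error, SE, 0.12) gave adjusted p = 0.998 in edgeR's test, and the 95% interval of the fold ran from 0.821 to 1.22. *Vim* (chromosome 2, 13573927 to 13582826), which encodes the filament protein vimentin of immature and reactive astrocytes and of vascular cells, had 71.0 and 93.5 CPM in control and 87.5 and 161 CPM in *Ash1L* shRNA samples. Only *Ash1L* shRNA sample 2 stood outside the control range. For *Vim*, DESeq2 gave an unadjusted P of 0.035 and adjusted p = 0.279. In edgeR's test the log2 change of *Vim* was 0.59 (SE 0.30), with an unadjusted P of 0.105 and adjusted p = 0.370. It was 0.087 without *Ash1L* shRNA sample 2 and 0.95 without sample 1.

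Of the genes for secreted proteins, *Serpina3n* (chromosome 12, 104406729 to 104414329) encodes an inhibitor of serine proteases and had 35.5 and 47.4 CPM in control and 56.3 and 63.3 CPM in *Ash1L* shRNA samples. The groups did not overlap, and the *Ash1L* shRNA samples lay nearer to each other than the controls did. Its log2 fold change was 0.52 (SE 0.17), with an unadjusted P of 0.019 and adjusted p = 0.260 in edgeR's quasi-likelihood test. Without control sample 1 it was 0.34 and no longer UP, with an unadjusted P of 0.12. *Serpina3n* lies in a cluster of close copies, and its reads can be shared with them.

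*Timp1* (chromosome X, 20870166 to 20874735) encodes an inhibitor of matrix metalloproteinases and had 1.84 and 2.91 CPM in control and 2.63 and 7.82 CPM in *Ash1L* shRNA samples. The level in *Ash1L* shRNA sample 2 rested on 162 counts, with a counting interval of 6.66 to 9.12 CPM, above the other samples. The log2 change of 1.09 (SE 0.56) gave adjusted p = 0.359 in edgeR's test. It was 0.11 without *Ash1L* shRNA sample 2 and 1.66 without sample 1.

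*Lcn2* (chromosome 2, 32384633 to 32388252), the gene of the iron-siderophore carrier lipocalin 2, was near the lower end of detection. Its reads numbered 29 and 25 in the controls and 66 and 23 in *Ash1L* shRNA samples 1 and 2, or 2.05, 0.713, 2.41 and 1.11 CPM. The groups overlapped, with control sample 1 above *Ash1L* shRNA sample 2. The log2 fold change of 0.45 (SE 0.64) gave adjusted p = 0.745 in edgeR's test, and it turned to -0.21 without control sample 2 and without *Ash1L* shRNA sample 1. *Cp* (chromosome 3, 19957054 to 20009145) encodes ceruloplasmin, a copper-carrying enzyme that oxidizes iron. It had 36.6 and 33.3 CPM in control and 39.6 and 28.9 CPM in *Ash1L* shRNA samples, with 1 *Ash1L* shRNA sample above and the other below the control range. Its log2 fold change was -0.024 (SE 0.18), and the 95% interval of the fold ran from 0.730 to 1.33. *Hps3*, on the opposite strand, shares 108 exonic bases with *Cp*, and *Gm32834* shares 45 with *S1pr3*. *Syn1*, *Gm23731* and *Gm26668* overlap *Timp1*, *Cd44* and *Gfap* on the opposite strand with 0 shared exonic bases.

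Of the genes for surface proteins, *Osmr* (chromosome 15, 6813577 to 6874969) encodes the receptor subunit that binds oncostatin M together with gp130. It had 14.2 and 14.1 CPM in control and 19.6 and 38.7 CPM in *Ash1L* shRNA samples. Both *Ash1L* shRNA samples were above both controls, at 1.39 and 2.74 times the control mean. Its log2 fold change was 1.04 (SE 0.32), with an unadjusted P of 0.018 and adjusted p = 0.260 in edgeR's quasi-likelihood test. Without control sample 1 or 2 the log2 fold change was 1.06 or 1.03, with an unadjusted P of 0.075 or 0.088, so *Osmr* was then not UP. The log2 fold change was 0.47 without *Ash1L* shRNA sample 2 and 1.45 without sample 1.

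*Cd44* (chromosome 2, 102811141 to 102901665) encodes a receptor for the matrix polysaccharide hyaluronan and had 10.6 and 11.5 CPM in control and 12.05 and 46.3 CPM in *Ash1L* shRNA samples. The groups did not overlap, although *Ash1L* shRNA sample 1, with a counting interval of 10.8 to 13.4 CPM, was close to control sample 2, with 10.4 to 12.7 CPM. *Ash1L* shRNA sample 2 was at 4.18 times the control mean and sample 1 at 1.09 times. Its log2 fold change of 1.39 (SE 0.64), the largest of the 10 genes, gave adjusted p = 0.347 in edgeR's test. It was 0.12 without *Ash1L* shRNA sample 2 and 2.05 without sample 1.

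*Steap4* (chromosome 5, 7960457 to 7982213), the gene of a membrane enzyme that reduces iron and copper, rested on 14 and 38 reads in control and on 67 and 26 in *Ash1L* shRNA samples, or 0.992, 1.08, 2.45 and 1.25 CPM. Here *Ash1L* shRNA sample 1 was the high sample, with a counting interval of 1.90 to 3.11 CPM, and sample 2 stood within counting error of the controls. The log2 change of 0.84 (SE 0.47) gave adjusted p = 0.395 in edgeR's test. It was 1.23 without *Ash1L* shRNA sample 2, and 0.26 without *Ash1L* shRNA sample 1. *S1pr3* (chromosome 13, 51408639 to 51422797) encodes a receptor for the lipid sphingosine-1-phosphate and had 14.8 and 17.4 CPM in control and 14.3 and 16.1 CPM in *Ash1L* shRNA samples. The groups overlapped, with a log2 fold change of -0.088 (SE 0.17), and the 95% interval of the fold ran from 0.710 to 1.25.

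The *Ash1L* shRNA samples differed in which of these genes stood out. In each of them 6 of the 10 genes were above the control range, against 36.6% of all genes tested in sample 1 and 41.7% in sample 2. In each of them 1 gene was below it, against 37.5% and 41.7% of all genes. *Cd44*, *Timp1*, *Osmr* and *Vim* deviated from the control mean by 1.97, 1.40, 1.39 and 0.97 in sample 2 on the log2(CPM + 1) scale, and by 0.11, 0.12, 0.44 and 0.10 in sample 1. *Steap4* and *Lcn2* deviated by 0.76 and 0.58 in sample 1 and by 0.15 and -0.12 in sample 2. For *Lcn2*, control sample 1 itself deviated by 0.42. Its counting interval of 1.38 to 2.95 CPM there overlapped that in *Ash1L* shRNA sample 1, 1.86 to 3.07 CPM. *Serpina3n* deviated by 0.45 in sample 1 and 0.61 in sample 2, both above the control range. With 1 sample on each side, the difference between samples 1 and 2 was not tested, and the median deviation over the 10 genes was 0.15 in sample 1 and 0.38 in sample 2.

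**Figure D2:**
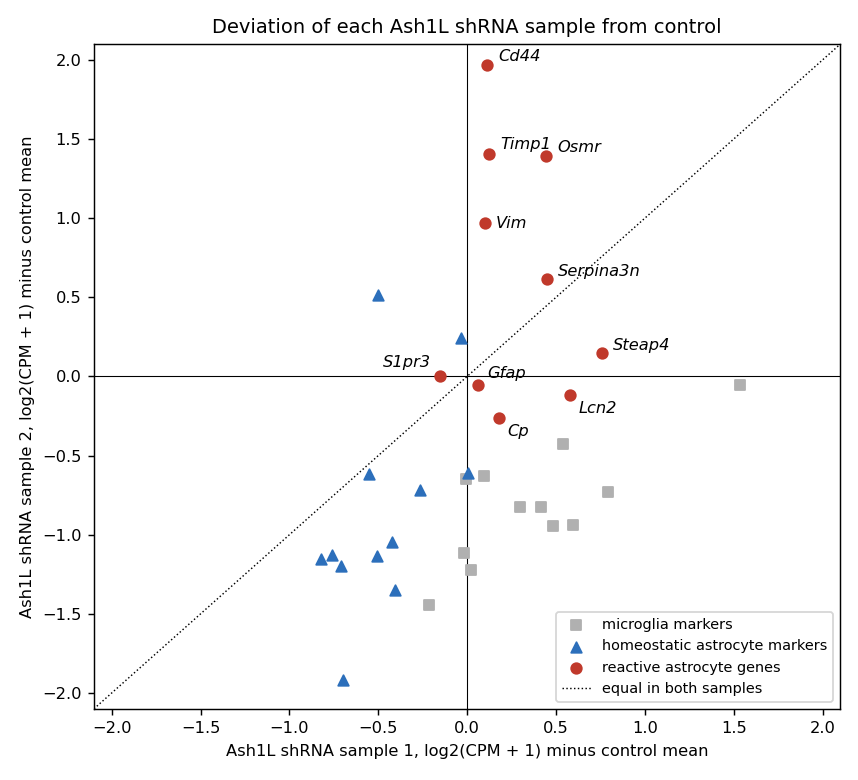
Deviation of each gene from the control mean, as log2(CPM + 1), in *Ash1L* shRNA sample 1 (horizontal axis) and sample 2 (vertical axis) for the reactive astrocyte genes (red circles, named), homeostatic astrocyte markers (blue triangles) and microglia markers (grey squares), with a dotted line where both samples are equal. *Cd44*, *Timp1*, *Osmr* and *Vim* lie high above that line, *Steap4* and *Lcn2* below it, and most homeostatic markers lie low in both samples.

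The stretches before the start sites of *Steap4*, high in *Ash1L* shRNA sample 1, and of *Cd44* and *Timp1*, high in sample 2, are shown because these genes stood out in different samples. They come from RefSeq windows on GRCm38.p6, the assembly of mm10, and keep only bases that also precede the GENCODE start. Capitals mark matches, on either strand, to a STAT motif (TTCNNNGAA), an AP-1 motif (TGANTCA), a C/EBP motif (TTNNGCAA) or the kappaB motif, whose own matches can overlap.
Steap4, chr5:7960222-7960456, plus strand: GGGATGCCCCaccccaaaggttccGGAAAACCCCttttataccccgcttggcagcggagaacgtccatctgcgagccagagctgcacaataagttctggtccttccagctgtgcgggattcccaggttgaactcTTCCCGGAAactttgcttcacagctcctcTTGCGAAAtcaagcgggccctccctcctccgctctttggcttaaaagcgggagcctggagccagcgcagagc
Cd44, chr2:102901666-102901915, minus strand: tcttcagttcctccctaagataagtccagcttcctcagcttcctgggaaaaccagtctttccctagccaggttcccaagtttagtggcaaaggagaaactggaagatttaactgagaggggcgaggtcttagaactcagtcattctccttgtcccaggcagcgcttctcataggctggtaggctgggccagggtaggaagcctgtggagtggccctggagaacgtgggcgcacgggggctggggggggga
Timp1, chrX:20869916-20870165, plus strand: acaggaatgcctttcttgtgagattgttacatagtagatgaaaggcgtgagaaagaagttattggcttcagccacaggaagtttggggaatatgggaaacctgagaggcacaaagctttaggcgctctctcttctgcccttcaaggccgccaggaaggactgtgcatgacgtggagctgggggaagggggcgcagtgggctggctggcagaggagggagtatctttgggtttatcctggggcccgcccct

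The *Steap4* stretch held a STAT match starting 116 bases before the RefSeq start site, a C/EBP match 87 bases before it, and kappaB matches 250 and 226 bases before it. The stretches of *Cd44* and *Timp1* held none of the 4 motifs. Over the 250 bases before the RefSeq start in 11 windows of the 10 genes, the STAT motif was in 1 gene (*Steap4*), the AP-1 motif in 1 (*Cp*), the C/EBP motif in 3 (*Lcn2*, *Steap4* and *Cp*) and the kappaB motif in 2 (*Vim* and *Steap4*). Of 32851 windows of all genes, 7.02% held the STAT, 6.75% the AP-1, 9.56% the C/EBP and 7.25% the kappaB motif. Counted by gene, as for the 10 genes, these motifs were in 2197, 2113, 2930 and 2225 of 27025 genes, in that order. The matches of *Vim*, of *Lcn2* and of the C/EBP motif in *Cp* lie before a RefSeq start but not before the GENCODE start of the gene. A match is a run of letters and was not tested as a binding site.

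Per kilobase of exon, which allows genes to be compared, *Gfap* had the highest level of the 10 in control samples, 79.6 ± 5.56 CPM per kb (SD, n = 2). *Serpina3n* followed with 20.1 ± 4.08 and *Vim* with 17.3 ± 3.36 CPM per kb, and their control samples overlapped. *Cp* (3.65 ± 0.241), *S1pr3* (3.61 ± 0.409), *Timp1* (2.67 ± 0.849), *Cd44* (1.64 ± 0.0959) and *Osmr* (1.17 ± 0.00501) came next. Among these, the control samples of *Cp* and *S1pr3* overlapped. *Lcn2* (0.527 ± 0.362) and *Steap4* (0.329 ± 0.0205) were lowest and could not be ordered. In the *Ash1L* shRNA samples, *Timp1* at 5.88 ± 4.13 and *Cd44* at 4.31 ± 3.58 CPM per kb had mean levels above those of *Cp* and *S1pr3*, with a spread between the samples that covers the difference.

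The equal level of *Gfap* stood beside lower levels of most genes in a list of astrocyte markers, here called homeostatic. Whether each of them marks a resting state was not tested. Of 12 such markers, 9 were DOWN, 0 were UP and for 9 both *Ash1L* shRNA samples lay below the controls, and the list's median log2 change was -0.76. Of all genes tested, 8.28% were DOWN, 8.61% were UP and 26.8% were lower in both *Ash1L* shRNA samples. The glutamate transporter gene *Slc1a3* had 661 and 670 CPM in control and 406 and 289 CPM in the *Ash1L* shRNA group, that is a log2 change of -0.94 (SE 0.18). The gap junction gene *Gja1* had 171 and 193 CPM in control and 102 and 81.2 CPM in *Ash1L* shRNA samples, and its log2 fold change was -0.99 (SE 0.15). *Aldoc*, *Fgfr3*, *Gjb6*, *Glul*, *Slc4a4*, *Aldh1l1* and *Slc1a2* were DOWN with log2 fold changes from -1.18 to -0.47. *S100b*, *Sox9* and the water channel gene *Aqp4* had log2 fold changes of -0.27, 0.063 and 0.11 and were not called. The adjusted p-values of the 12 markers lay between 0.234 and 0.948 in edgeR's test. Scaling each sample to the geometric mean of these 12 markers in place of TMM put 8 of the 10 reactive genes UP, *Gfap* among them with a log2 fold change of 0.67, but on that scale 58.4% of all genes were UP and the median log2 fold change of all genes was 0.67.

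**Figure D3:**
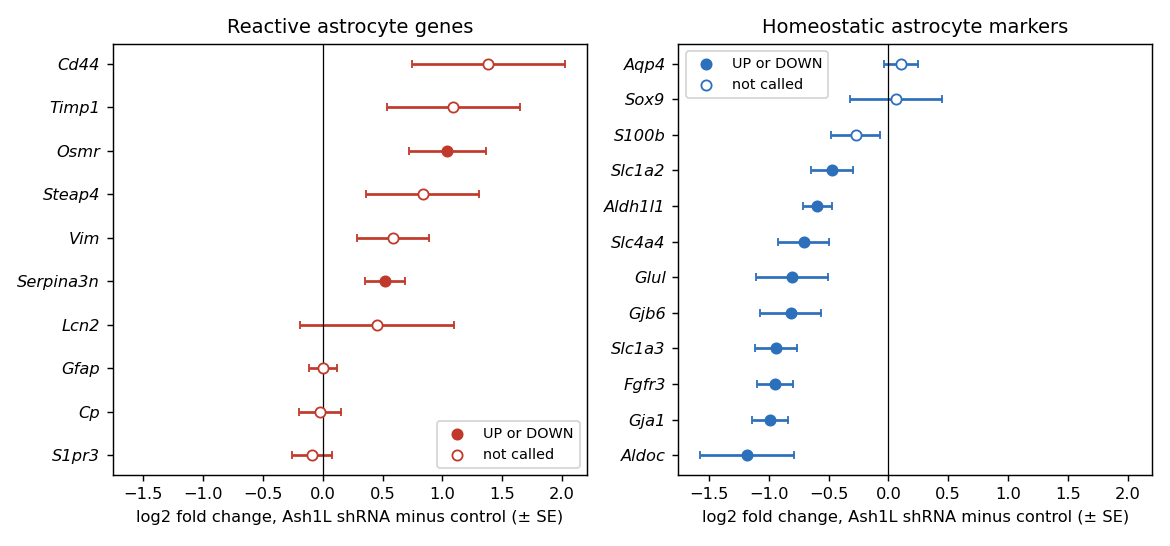
Log2 fold change, *Ash1L* shRNA minus control, with standard errors from edgeR's quasi-likelihood test, for the 10 reactive astrocyte genes (left) and 12 homeostatic astrocyte markers (right), with filled points for genes UP or DOWN. Among the reactive genes *Osmr* and *Serpina3n* are filled, and 9 of the homeostatic markers are filled on the negative side.

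Markers of other cells that can make these transcripts are given beside them, to be read against 8.61% UP and 8.28% DOWN of all genes tested. The 12 microglia markers, *Csf1r* among them, had 0 UP and 0 DOWN, and they summed to 944 and 976 CPM in control and to 1276 and 509 CPM in *Ash1L* shRNA samples 1 and 2. Their median deviation was 0.36 in sample 1, where *Steap4* was high, and -0.82 in sample 2, where *Cd44*, *Timp1*, *Osmr* and *Vim* were high. The neutrophil genes *S100a8* and *S100a9* lay between 0.0730 and 0.496 CPM in every sample. The 10 endothelial markers, led by *Slc2a1* and *Slco1a4*, summed to between 341 and 373 CPM in control and between 363 and 374 CPM in *Ash1L* shRNA samples, with 0 UP and 0 DOWN, and the 8 mural cell markers, led by *Rgs5* and *Vtn*, to 240 and 250 against 257 and 222 CPM, with *Abcc9* UP. The 8 fibroblast markers, led by *Fn1* and *Col1a2*, summed to 145 and 246 CPM in control and 229 and 270 CPM in *Ash1L* shRNA samples, with *Col3a1* and *Lum* UP and *Slc6a13* DOWN. The part of these cells in the levels of the reactive genes was not tested.

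Other genes of the same response were grouped in the classes commonly used for reactive astrocytes, A1 for genes raised after inflammatory lipopolysaccharide and A2 for genes raised after ischemia. Many of these genes are also made by other brain cells. Of 11 A2 genes tested out of 12, 3 were UP, 0 were DOWN and 7 were higher in both *Ash1L* shRNA samples, and the list's median log2 change was 0.66. The shares of all genes tested were 8.61% UP, 8.28% DOWN and 26.5% higher in both. *Cd109*, the gene of a surface protein anchored by a lipid, had 1.98 and 2.34 CPM in control and 9.75 and 20.3 CPM in the *Ash1L* shRNA group, that is a log2 change of 2.77 (SE 0.40). *Emp1* and *Tm4sf1*, both genes of proteins spanning the membrane, were UP with log2 fold changes of 1.24 and 0.81. *Ptgs2*, the gene of cyclooxygenase 2 that is also induced in active neurons, had 46.9 and 27.4 CPM in control and 71.9 and 515 CPM in *Ash1L* shRNA samples, and its log2 fold change of 2.99 (SE 1.14) was not called. *S100a10* had 24.4, 26.1, 26.3 and 53.6 CPM in control samples 1 and 2 and *Ash1L* shRNA samples 1 and 2.

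Of 11 A1 genes tested out of 12, 0 were UP, 2 were DOWN and 4 were lower in both *Ash1L* shRNA samples, and the list's median log2 change was -0.43. The shares of all genes tested were 8.61% UP, 8.28% DOWN and 26.8% lower in both. *Psmb8*, an immunoproteasome subunit gene, and *Serping1*, the gene of the complement C1 inhibitor, were DOWN with log2 fold changes of -0.95 and -0.86. Control sample 2 was the high sample for both, with *Psmb8* at 17.2 and 30.3 CPM in control and 15.6 and 9.17 CPM in *Ash1L* shRNA samples. The median deviation of the A1 list was -0.36 in control sample 1 and -0.29 in *Ash1L* shRNA sample 1, against -0.44 in *Ash1L* shRNA sample 2. *H2-D1*, a class I gene of the major histocompatibility region with close copies, had 69.4 and 122 CPM in control and 73.7 and 29.8 CPM in *Ash1L* shRNA samples, so the groups overlapped. *H2-T23*, *Gbp2* and *Fkbp5* had log2 fold changes of 0.18, -0.61 and 0.58 and were not called. Markers of lymphocytes stood beside these genes, since 9 of 10, *Cd4* and *Cd79b* among them, were DOWN and all 10 were lower in both *Ash1L* shRNA samples, with sums of 18.1 and 31.0 CPM in control and 5.15 and 3.57 CPM in *Ash1L* shRNA samples. Their part in the A1 levels was not tested. The remaining genes raised in both kinds of reactive astrocyte were *Aspg*, UP with a log2 fold change of 0.75, and *Hspb1* and *Cxcl10*, not called at 0.48 and 0.17.

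**Figure D4:**
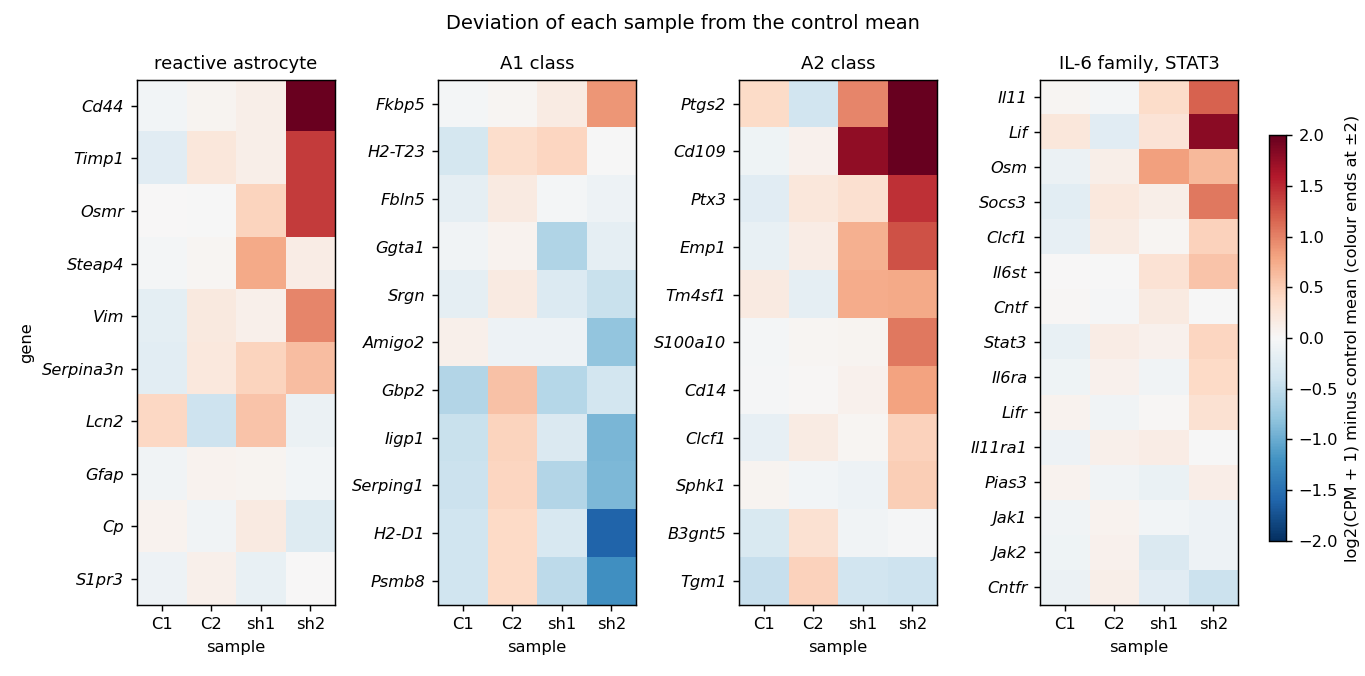
Deviation of each sample from the control mean, as log2(CPM + 1) in colour (ends at ±2), for control samples (C1, C2) and *Ash1L* shRNA samples (sh1, sh2) in the reactive astrocyte genes, the A1 and A2 classes and the IL-6 family with STAT3. *Ptgs2* and *Cd109* pass the upper end of the colour scale in sh2, and *H2-D1* and *Psmb8* are lowest in sh2.

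In the IL-6 family, 15 of 16 genes were tested, 4 were UP and 0 were DOWN, against 8.61% and 8.28% of all genes tested. Both *Ash1L* shRNA samples were higher for 4 of the 15 and lower for 2, against 26.5% and 26.8% of all genes. The list's median log2 change was 0.26. *Il6st*, the gp130 subunit that pairs with *Osmr*, had 128 and 126 CPM in control and 155 and 189 CPM in the *Ash1L* shRNA group, that is a log2 change of 0.44 (SE 0.13) with adjusted p = 0.260 in edgeR's test. The ligand genes *Osm*, *Lif* and *Il11* were UP at low levels. *Osm* had 0.213 and 0.428 CPM in control and 1.31 and 1.06 CPM in *Ash1L* shRNA samples. *Lif* had 1.06, 0.513, 1.13 and 5.16 CPM and *Il11* 0.283, 0.228, 0.621 and 1.83 CPM in the same order of samples, so both were highest in *Ash1L* shRNA sample 2. *Stat3* had 69.6 and 85.6 CPM in control and 81.7 and 105 CPM in *Ash1L* shRNA samples, and *Socs3*, a feedback inhibitor that STAT3 induces, had 5.88, 8.12, 7.56 and 15.4 CPM. Neither was called, at log2 fold changes of 0.26 and 0.69, and in both *Ash1L* shRNA sample 1 lay within the control range. The kinase genes *Jak1* and *Jak2* and the partner receptor gene *Lifr* had log2 fold changes of -0.077, -0.20 and 0.17.

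Among 9 other intermediate filament genes, *Nes* and *Lmna* were UP and 0 were DOWN, against 8.61% and 8.28% of all genes tested. *Nes*, which encodes nestin of neural progenitors and reactive astrocytes, had 18.5 and 15.9 CPM in control and 29.8 and 48.4 CPM in the *Ash1L* shRNA group, that is a log2 change of 1.19 (SE 0.25) with adjusted p = 0.250 in edgeR's test. *Lmna*, the lamin A gene, had a log2 fold change of 0.54. The neurofilament genes *Nefl*, *Nefh*, *Nefm* and *Ina* had log2 fold changes from 0.11 to 0.29 and were not called.

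Of 20 genes whose products bind, cleave or resemble those of the reactive genes, 2 were UP and 2 were DOWN. These shares were near the 8.61% and 8.28% of all genes tested, and the list's median log2 change was 0.11. *Mmp3*, a metalloproteinase that TIMP1 inhibits, rested on 2 and 1 reads in control and on 75 and 41 in *Ash1L* shRNA samples, or 0.142, 0.0285, 2.74 and 1.98 CPM, and was UP. *Steap1*, a relative of *Steap4*, was UP with 0.283 and 0.171 CPM in control and 0.511 and 1.35 CPM in *Ash1L* shRNA samples. *S1pr1*, an astrocyte and endothelial receptor of the same family as *S1pr3*, was DOWN with 183 and 164 CPM in control and 125 and 74.6 CPM in the *Ash1L* shRNA group, that is a log2 change of -0.80. *Slc22a17*, the gene of a lipocalin 2 receptor, was DOWN by a log2 change of -0.28. *Timp2* and *Timp3*, relatives of *Timp1*, had log2 fold changes of 0.20 and 0.029 and were not called.

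The 5 genes whose values over the 4 samples were nearest to the median profile of the 10 reactive genes were *Dock1*, *Plaa*, *Tex264*, *Tmem11* and *Ccdc19*, at Euclidean distances of 0.0181 to 0.0334 on the log2(CPM + 1) scale. That profile, at -0.063 and 0.063 in control and 0.15 and 0.38 in *Ash1L* shRNA samples, is a middle course that hides the separate patterns described above.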

How the data were processed

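RNA-seq counts for 2 control and 2 *Ash1L* shRNA samples were used, grouped by their labels. Per the methods and labels, the authors aligned paired-end reads from rRNA-depleted stranded libraries to mm10 with STAR and made featureCounts tables, and deposited unnormalized counts for each gene symbol. The labels also name Cutadapt and TopHat2. Strand and multiple-mapping settings are not given in the sources used here, so overlapping genes can share reads. Counts were filtered (filterByExpr), TMM-scaled and tested across 16232 genes with edgeR 4.0.16 (glmQLFit with robust estimation, glmQLFTest, R 4.3.3) with Benjamini-Hochberg adjustment. Standard errors (SE) were obtained from log2 fold change and F statistic (ratio to its square root). The fitted test was run on data simulated with a common dispersion for all genes, which does not carry the unequal spread of these groups. Deviations use log2(CPM + 1). Exon lengths and mm10 loci came from GENCODE vM21 and start windows from RefSeq (GRCm38.p6). Replicates differed beyond sampling noise (chi-square per degree of freedom of 13.0 between controls and 37.0 between *Ash1L* shRNA samples). DESeq2 1.42.0, the likelihood ratio test, other scalings and filters, a replicate block and leaving out each sample were alternatives.

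The 10 genes and all lists were chosen with earlier results of these data known. The genes named were all members, the homeostatic astrocyte markers, and from each related list up to 4 by mean count and up to 3 called in each direction, plus *Stat3*, *Socs3* and *Il6st*, the 2 most abundant genes of each cell type list, and the 5 genes nearest to the median profile. *Lif* and the other cell type genes named were chosen after their values were seen. A few genes named by this rule are not reported here. The myeloid marker *Chil3* was not analysed here.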

Additional observations from a re-analysis of the deposited data

How the results depend on the processing

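With 2 samples in a group, the 10 genes' results depended on single libraries. With 1 sample left out in turn, where the lone sample is taken to vary like the other group, 0 to 5 of the 10 genes were UP (0 without control sample 1, 1 without control sample 2, 5 without *Ash1L* shRNA sample 1 and 3 without sample 2, against 5.07%, 2.57%, 14.4% and 6.25% of all genes). In the same order 5, 7, 6 and 6 of the 10 lay above the controls, against 38.4%, 36.8%, 41.8% and 37% of all genes, shares that rise with fewer samples. From 0 to 4 of the 10 had an adjusted p under 0.05, the 4 without *Ash1L* shRNA sample 1, where 15.2% of all genes did, and the median log2 fold change ran from 0.15 to 0.77. Log2 fold changes that changed sign ran from -0.27 to 0.19 for *Cp*, -0.064 to 0.070 for *Gfap*, -0.21 to 1.32 for *Lcn2* and -0.18 to 0.033 for *S1pr3*. Over all genes, 423 to 2368 were then UP, against 1397 with all samples.

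With all samples kept, *Gfap* was at -0.00032 with DESeq2 and -0.0019 without the count filter, and *Cp* at 0.013 with library-size scaling. DESeq2 gave 1 of the 10 genes an adjusted p under 0.05, against 2.09% of all genes. A 1.5-fold limit kept *Osmr* UP at 2.06-fold but not *Serpina3n* at 1.44-fold. The share of all genes at that limit was not computed. Scaled to the homeostatic astrocyte markers, 8 genes were UP, 9 lay above both controls (83.2% of all genes), 7 had an adjusted p under 0.05 (50.4% of all genes), the median was 1.26, *Cp* stood at 0.62 and *S1pr3* at 0.60, with 9475 genes UP and 86 DOWN in all. Genes with an adjusted p under 0.05 numbered 421 with DESeq2, 479 with the likelihood ratio test, 34 without the filter and 8189 on the astrocyte marker scale, against 1. DESeq2 had *Osmr*, *Serpina3n* and *Vim* UP, 3 of the 10, against 6.16% of all genes. The likelihood ratio test had *Osmr*, *Serpina3n* and *Cd44* UP, 3 of the 10, against 8.72%. The other scalings and filters, apart from the astrocyte marker scale, had 2, against 7.83% to 10.1% of all genes. No source ties same-numbered samples together, so they were not treated as pairs. Their deviations were only weakly correlated (-0.15). With the replicate block, 4 genes were UP (*Osmr*, *Serpina3n*, *Timp1* and *Vim*), against 6.48% of all genes, and 0 had an adjusted p under 0.05. With the block crossed, chosen after seeing the data, 2 were UP, against 9.49% of all genes. *Lcn2* and *Steap4* are limited by depth, with 14 to 67 counts a sample.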

Other observations

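Cell type markers not described above gave these values, to be read against 8.61% UP and 8.28% DOWN of all genes tested. Of 8 excitatory neuron markers, led by *Camk2a* and *Slc17a7*, 4 were DOWN and 0 UP, and the list's median log2 change was -0.40. Of 8 interneuron markers, led by *Gad1* and *Gad2*, 3 were DOWN and 0 UP, with a median of -0.31. Of 10 oligodendrocyte markers, *Mbp* among them, 2 were DOWN and 0 UP, with a median of -0.26, while of 6 precursor markers, led by *Pdgfra* and *Gpr17*, *Pdgfra* and *Sox10* were UP and the median was 0.31. Of 6 infiltrating myeloid markers tested, led by *Lyz2* and *Ly6c2*, *Ly6c2*, *Itgal* and *Ccr2* were DOWN, and *Ly6c2* had 10.2 and 20.6 CPM in control and 1.57 and 1.25 CPM in *Ash1L* shRNA samples.

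Of 7 choroid plexus and ependyma markers, 6 were tested, led by *Foxj1* and *Aqp1*, and *Aqp1*, *Ccdc153* and *Tmem212* were UP. *Ccdc153*, a gene of cells with motile cilia, had 0.425 and 0.200 CPM in control and 0.548 and 2.99 CPM in *Ash1L* shRNA samples, and the list summed to 12.1 and 11.8 CPM in control and 11.4 and 28.3 CPM in *Ash1L* shRNA samples. The choroid plexus gene *Ttr* lay between 0.146 and 1.37 CPM in all samples. The list's sum and *Ccdc153* were highest in *Ash1L* shRNA sample 2, as were the levels of *Cd44*, *Timp1*, *Osmr* and *Vim*, and the part of these cells in those levels was not tested.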
